A study of Mus musculus with 2 samples.

Results

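The genes described here encode the subunits of voltage-gated calcium and sodium channels and of all potassium channels, in medullary thymic epithelial cells (mTECs) of the mouse. They are the rows of the gene table whose symbol begins with Kcn, Cacna1, Cacna2d, Cacnb or Cacng, or with Scn and a digit. The rule used symbols only and no measured value. It gave 137 of 23997 rows: 94 potassium channel rows, 26 calcium channel rows, 14 sodium channel rows and 3 noncoding or antisense rows named after a channel gene. RNA came from mTECs with high MHC class II, sorted by flow cytometry from a pool of C57BL/6 mice, with 1 library of the genotype WT and 1 of the genotype Aire-KO. The sources used here do not give the targeted allele, the number of mice pooled, their age or their sex. Aire is a transcriptional regulator through which these cells transcribe genes otherwise used in peripheral organs, so that developing T cells meet those products. The question behind the comparison is which genes differ when Aire is disrupted.

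Ion channels are membrane proteins whose pores let selected ions cross. Voltage-gated sodium channels start the action potential of nerve and muscle, and voltage-gated calcium channels turn it into calcium entry, contraction and secretion. Potassium channels set the resting potential, end the action potential and, in epithelia, recycle potassium so that acid, chloride or fluid can be secreted. A pore-forming subunit usually works with accessory subunits that change its gating or carry it to the membrane. Single channel genes are typical of particular cells, such as Kcnk16 of pancreatic islets, Cacna1s of skeletal muscle and Scn9a of sensory neurons.

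Values are FPKM, fragments per kilobase of transcript scaled to library size, and in each pair the library labelled WT comes first. Ratios are log2((Aire-KO FPKM + 0.1)/(WT FPKM + 0.1)), which understates the change of low genes. Genes whose 2 values averaged at least 0.5 FPKM were called lower or higher in the library labelled Aire-KO where this ratio reached 2-fold. The rule goes by size and tests nothing: with 1 library per genotype no difference has a replicate check, and no p-value was computed. A 95% counting interval is given for the log2 ratio of FPKM without the added 0.1, from estimated fragments, and it covers counting error only. In RNA from many cells, fewer cells of a type and less RNA per cell cannot be told apart.

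The label was checked on the targeted gene first. Its FPKM was 220.6 under the label WT and 640.2 under the label Aire-KO, so the Aire transcript was higher in the latter (log2 ratio 1.54, 95% counting interval 1.51 to 1.56). A value over the whole gene does not isolate a deleted part, so it checks nothing here, and every direction below is given by library label. All 14 mTEC markers found in the table were above the minimum in both libraries, with summed levels of 19445 and 26620 FPKM. Markers of other cell types were also present and differed between the libraries. Over all genes at the minimum, 20.5% were lower and 7.09% higher. Of the tuft-like markers 11 of 11 were lower (sums of 562.7 and 149.0 FPKM), and of the ionocyte-like markers 5 of 6 were lower and 1 higher (24.5 and 15.9 FPKM), with a listed 0 for Foxi2 and Ascl3 under the label Aire-KO. The neuroendocrine-like list had 6 of 10 lower and 2 higher (740.9 and 504.5 FPKM), the muscle-like list 7 of 12 lower and 3 higher (76.9 and 80.8 FPKM), and the ciliated-like list 5 of 7 lower (207.8 and 100.3 FPKM). Thymocyte markers had 3 of 10 lower and 1 higher, dendritic cell and macrophage markers 5 of 7 lower, B cell markers 1 of 5 lower and 1 higher, markers of fibroblasts, endothelium and neural crest 4 of 9 lower, and red cell markers 1 of 3 lower. The part of these cell types in the channel values was not tested.

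Channel transcripts were mostly scarce, and the potassium channel genes leaned towards the library labelled WT. Of the 137 rows, 77 had a mean of 0.5 FPKM or more. Of these, 24 were lower (31.2%), 12 were higher (15.6%) and 41 were neither. Over all 15906 genes at that minimum, 20.5% were lower and 7.09% were higher. Both shares were therefore larger among the channel genes than among all genes. The median log2 ratio of the 77 was -0.19, against 0.05 over all genes at the minimum. The direction differed by ion, with genes grouped by symbol. Of 51 measured potassium channel genes 21 were lower and 7 higher (median -0.47), of 16 calcium channel genes 2 were lower and 4 higher (median 0.26), and of 10 sodium channel genes 1 was lower and 1 higher (median 0.21). The calcium channel group includes the Cacng genes, some of which escort glutamate receptors. These gave 1 of its 2 lower genes and 2 of its 4 higher genes. Pore-forming subunits had 16 of 53 lower and 9 higher, and accessory subunits 8 of 24 lower and 3 higher.

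**Figure D1:**
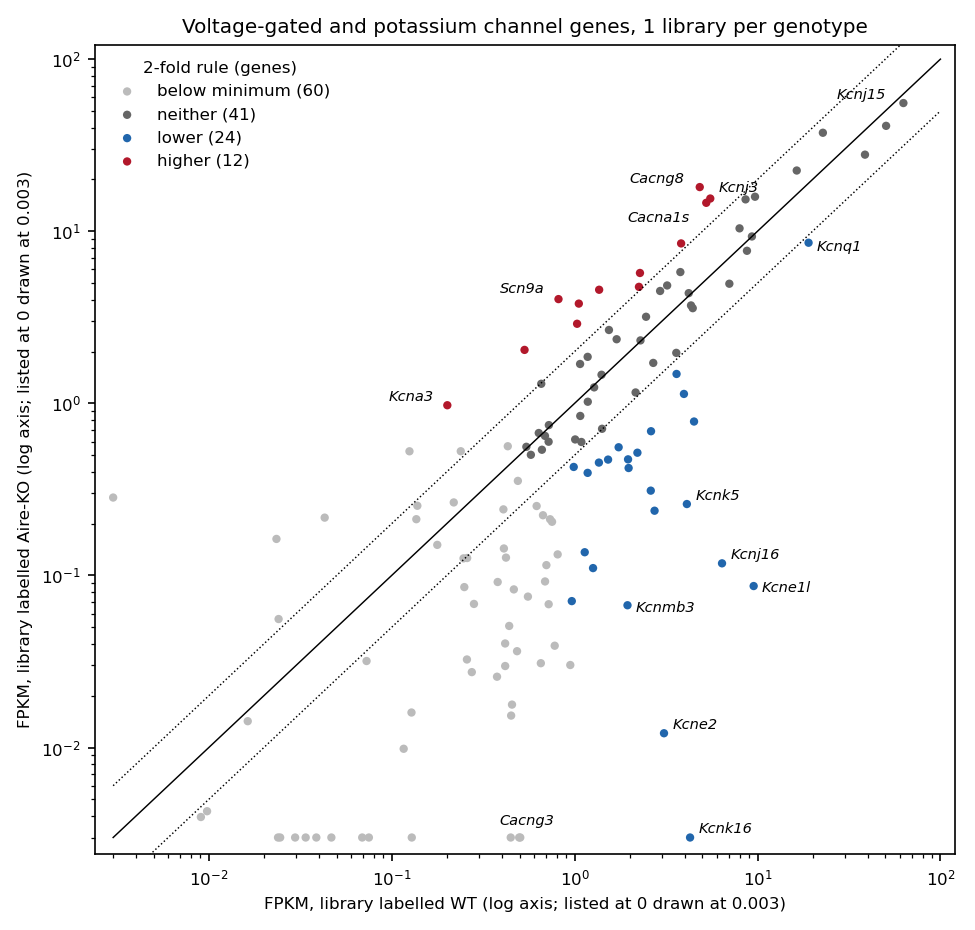
Each point is 1 of the 137 channel genes, with its FPKM in the library labelled WT on the horizontal log axis and in the library labelled Aire-KO on the vertical log axis; values listed at 0 are drawn at 0.003, the solid line marks equal values and the dotted lines a 2-fold difference. The 24 lower genes (blue) reach far below the diagonal, down to Kcnk16 listed at 0, while the 12 higher genes (red) lie closer to it, with Scn9a at a log2 ratio of 2.17 the farthest.

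These shares varied with abundance. In the range of 0.5 to 1 FPKM (mean of both libraries), 7 of 19 channel genes were lower (36.8%) and 1 was higher (5.26%), both below the shares of all genes in that range, 51.8% and 7.51%. In the range of 1 to 2 FPKM, 9 of 18 channel genes were lower and 2 higher, where 37.4% of all genes were lower and 7.77% higher. In the range of 2 to 5 FPKM, 7 of 24 channel genes were lower (29.2%) and 5 higher (20.8%). There, 25.8% of all genes were lower and 8.09% higher. In the range of 5 to 20 FPKM, 1 of 12 channel genes was lower and 4 were higher, where 12.3% of all genes were lower and 6.32% higher. The 4 channel genes at 20 FPKM or more, Kcnj15, Cacnb3, Kcnip3 and Kcnk6, were all neither lower nor higher. With a minimum mean of 2 FPKM the counts became 8 lower and 9 higher of 40, against 14.3% and 6.95% of all genes, and the median turned from -0.19 to 0.21. Lower channel genes thus outnumbered higher ones in each range up to 5 FPKM, and higher ones outnumbered lower ones from 5 to 20 FPKM. Among all genes, lower calls were most common below 2 FPKM.

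The authors' deposited table called none of the 137 rows significant, against 0.292% of its rows in all. In the authors' deposited table the smallest q-value of a channel gene was 0.125, shared by Cacng3 and Kcnk16, and 11 of the 137 had a p-value there below 0.05, against 7.49% of all 20473 genes it tested. Those values compare these 2 libraries and not the genotypes. Intervals were not computed over all genes, so the counts that follow have no share to stand beside. Counting error was small beside many of the differences: the 95% counting interval left out 0 for 110 of 134 channel genes with an interval, 78 below 0 and 32 above. It left out 0 for all 23 lower genes with an interval, for all 12 higher genes, and for 29 of 40 genes that were neither. The lower and higher genes were chosen by a 2-fold ratio, so few of their intervals could include 0, and their counts check nothing. The genes next to the 2-fold threshold on the lower side were Kcnk3 (0.989 and 0.427 FPKM, log2 ratio -1.05) just inside and Kcnmb2 (1.41 and 0.711 FPKM, -0.90) just outside. On the higher side, Cacna2d1 (2.25 and 4.75 FPKM, 1.05) lay just inside and Cacna1e (0.657 and 1.30 FPKM, 0.89) just outside.

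**Figure D2:**
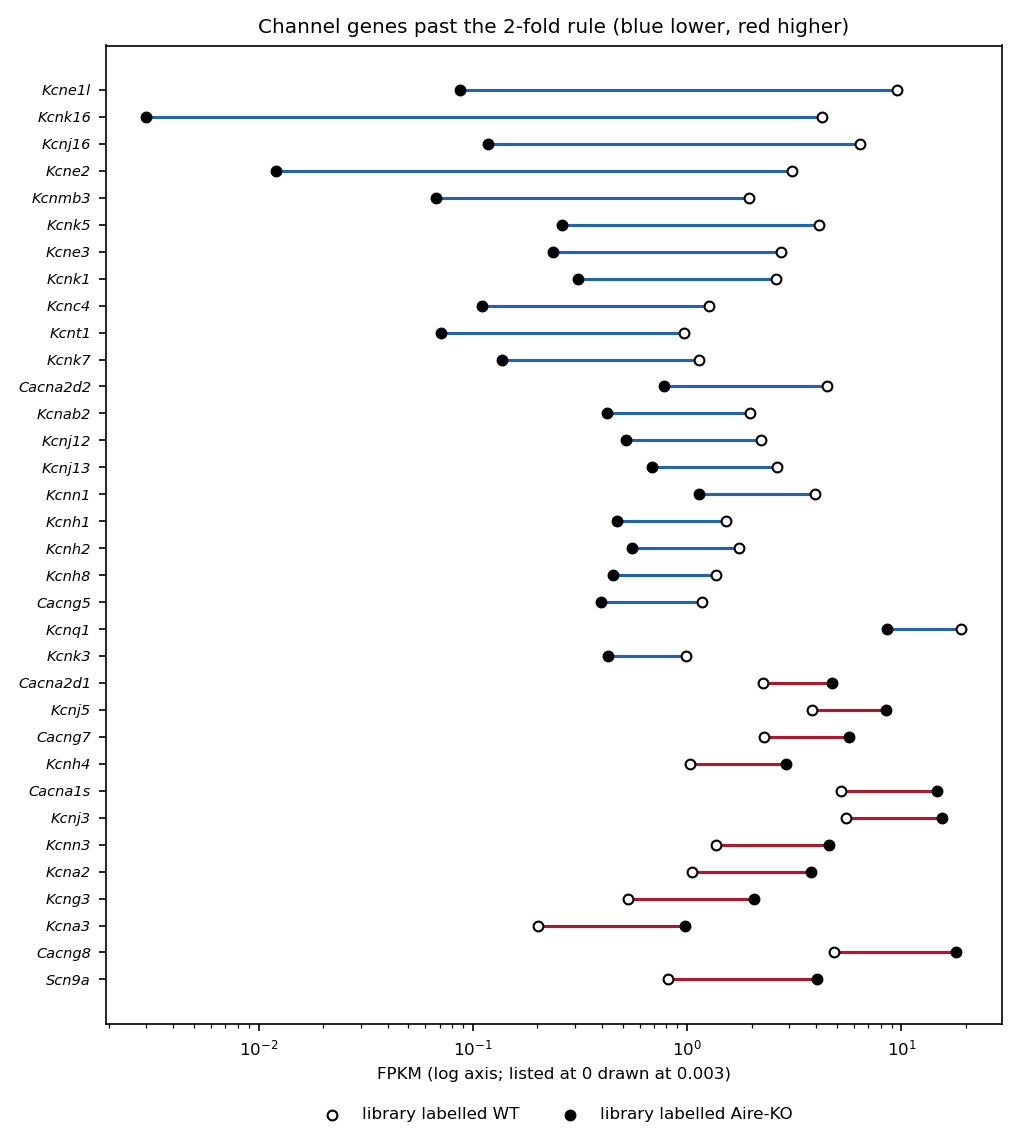
Each line joins the FPKM of 1 channel gene in the library labelled WT (open circle) and in the library labelled Aire-KO (filled circle) on a log axis, for the lower genes shown (blue) and the 12 higher genes (red); Kcnk16, listed at 0, is drawn at 0.003. Among the lower genes, Kcne1l (9.52 and 0.0867 FPKM) spans about 2 decades, while the widest line among the higher genes, Scn9a, runs from 0.816 to 4.03 FPKM.

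To show the DNA next to which lower and higher members start, 5 upstream windows were printed. RefSeq promoter windows (assembly GRCm38.p6, which is mm10) of 300 bases, 250 before to 50 after a start, were matched by symbol for 100 of the 137 rows. The 5 printed were chosen after their values were seen, to span few and many CG dinucleotides on each side: Kcnk16, Kcnj13 and Kcnh2 among the lower genes and Kcna3 and Scn9a among the higher genes. Each is the 250 bases before the start, read 5′ to 3′ on the strand of the gene, and none overlaps an exon of the GENCODE annotation. Capitals mark each CG dinucleotide, the base pair step that cytosine methylation acts on in mammals, and the motif TATAAA. The windows are chr14:20269270-20269519 (minus strand) for Kcnk16, chr1:87394730-87394979 (minus strand) for Kcnj13, chr5:24329592-24329841 (minus strand) for Kcnh2, chr3:107035912-107036161 (plus strand) for Kcna3 and chr2:66634963-66635212 (minus strand) for Scn9a. The Kcnh2 window lies inside the RefSeq span of that gene, at the start the RefSeq windows list. Of the 250 bases of the Scn9a window, 152 also lie inside the RefSeq span of Scn9a.
Kcnk16: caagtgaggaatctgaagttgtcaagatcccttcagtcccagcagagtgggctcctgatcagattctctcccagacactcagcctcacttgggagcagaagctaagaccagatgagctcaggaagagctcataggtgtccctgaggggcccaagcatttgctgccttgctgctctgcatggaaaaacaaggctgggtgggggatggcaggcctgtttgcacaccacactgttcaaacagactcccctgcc
Kcnj13: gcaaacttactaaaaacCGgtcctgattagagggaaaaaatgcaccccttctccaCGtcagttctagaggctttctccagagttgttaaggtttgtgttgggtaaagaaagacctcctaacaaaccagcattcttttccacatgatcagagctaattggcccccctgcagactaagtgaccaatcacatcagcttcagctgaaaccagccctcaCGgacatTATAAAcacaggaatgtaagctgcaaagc
Kcnh2: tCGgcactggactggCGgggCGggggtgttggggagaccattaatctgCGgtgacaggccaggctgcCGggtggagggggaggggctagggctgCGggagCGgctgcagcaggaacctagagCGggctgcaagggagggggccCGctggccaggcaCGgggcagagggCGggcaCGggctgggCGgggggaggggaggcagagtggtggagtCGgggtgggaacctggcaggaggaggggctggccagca
Kcna3: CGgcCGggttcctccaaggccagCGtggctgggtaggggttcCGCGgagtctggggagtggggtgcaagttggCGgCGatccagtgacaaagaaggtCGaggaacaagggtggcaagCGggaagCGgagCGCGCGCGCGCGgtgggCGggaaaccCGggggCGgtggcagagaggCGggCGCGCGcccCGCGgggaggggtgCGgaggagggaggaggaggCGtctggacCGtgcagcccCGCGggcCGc
Scn9a: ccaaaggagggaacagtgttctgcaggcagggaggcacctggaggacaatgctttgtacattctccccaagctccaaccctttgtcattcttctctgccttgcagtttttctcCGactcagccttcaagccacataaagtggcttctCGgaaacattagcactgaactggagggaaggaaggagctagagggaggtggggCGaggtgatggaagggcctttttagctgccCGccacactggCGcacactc

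The printed stretches held 0 CG dinucleotides for Kcnk16, 3 for Kcnj13, 14 for Kcnh2, 31 for Kcna3 and 5 for Scn9a. That lower and higher members each show a CG-poor and a CG-rich example was set by the choice of windows and is no result. Over the full windows of 300 bases, the median number of CG dinucleotides was 11 in the 19 lower members with a window, 13 in the 12 higher members and 18 in the 26 that were neither. Over all genes with a window the medians were 6 for lower, 17.5 for higher and 21 for neither. The range within the channel genes was wide on both sides, from 2 to 43 among the lower members and from 2 to 49 among the higher members. The motif TATAAA, searched on both strands and unable to overlap a CG, was present in windows of 2 lower, 0 higher and 3 neither members, and in windows of 14.3% of all genes (19.5% of lower, 11.7% of higher and 8.35% of neither). Counted by window it was in 13.6% of all 32851. Kcnj13 was 1 of the lower members with it. A match or its absence describes these letters only.

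**Figure D3:**
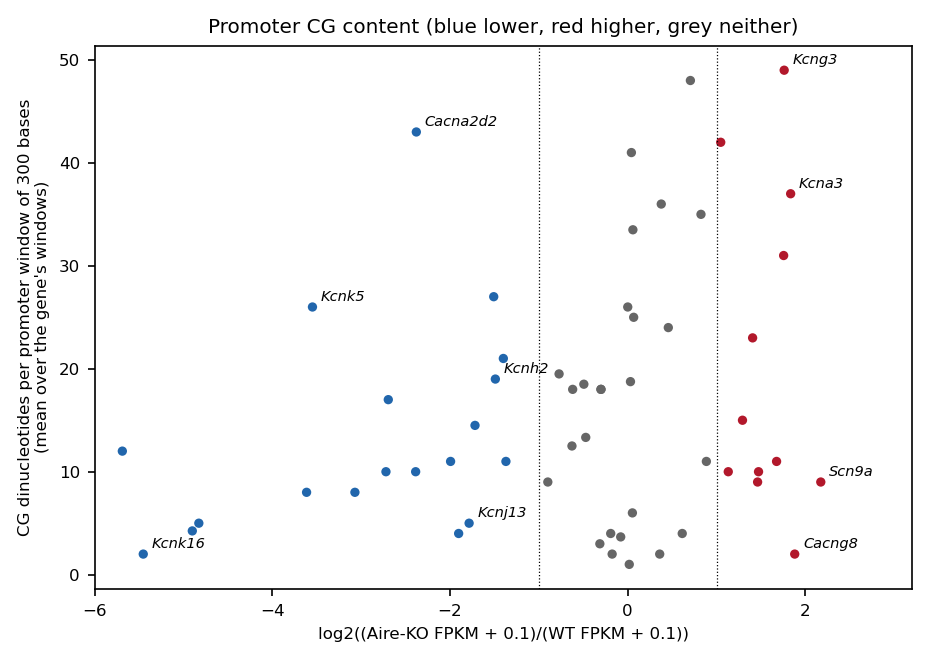
Each point is 1 channel gene with a mean of 0.5 FPKM or more and a RefSeq promoter window, with the log2 ratio (0.1 FPKM added) on the horizontal axis and the number of CG dinucleotides per window of 300 bases on the vertical axis, averaged where a gene has several windows. Lower genes (blue, median 11), higher genes (red, median 13) and the rest (grey, median 18) overlap over most of the range; Kcnk16, with a listed 0 under the label Aire-KO, is placed by the added 0.1.

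By channel class, 2-pore-domain potassium channels and potassium channel accessory proteins had the largest shares of lower genes and no higher gene. Over all genes at the minimum, 20.5% were lower and 7.09% higher. The 2-pore-domain class carries background potassium current and had 5 of 8 measured genes lower (median -1.72), and the accessory proteins had 5 of 11 lower (median -0.90). Voltage-gated potassium pore subunits had 6 of 17 lower and 3 higher, inward rectifiers 3 of 9 lower and 2 higher, and calcium- and sodium-activated potassium channels 2 of 5 lower and 1 higher. Calcium channel pore subunits had 0 of 7 lower and 1 higher (median 0.60), and calcium channel accessory subunits 2 of 9 lower and 3 higher. Sodium channel pore subunits had 0 of 6 lower and 1 higher (median 0.34), and 1 of 4 sodium channel beta subunits was lower. Among 10 silent potassium channel subunits, which form channels only together with other subunits, 9 were below the minimum and Kcng3 was higher. Of the lower 2-pore-domain genes, Kcnk1, Kcnk3 and Kcnk7 had means below 2 FPKM. In the ranges of 0.5 to 1 and 1 to 2 FPKM, 51.8% and 37.4% of all genes were lower. With a minimum mean of 2 FPKM the lower genes numbered 2 among 2-pore-domain channels (Kcnk16 and Kcnk5, beside Kcnk6 that was neither). They numbered 1 among potassium accessory proteins and 1 among voltage-gated potassium pores. Over all genes at that minimum, 14.3% were lower. The class counts are small, and no difference between classes was tested.

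**Figure D4:**
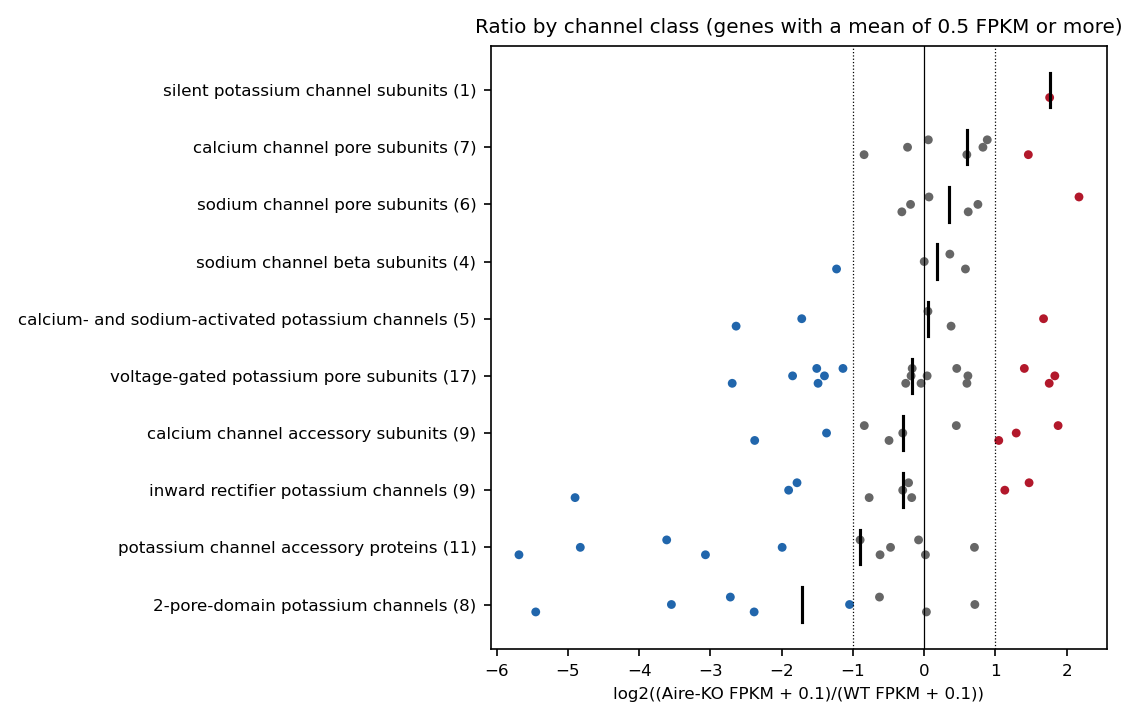
Each point is 1 channel gene with a mean of 0.5 FPKM or more, placed by its log2 ratio (0.1 FPKM added) in the row of its class, with the number of genes in parentheses; black bars are class medians, dotted lines mark the 2-fold rule, and blue, red and grey are lower, higher and neither. All coloured points of the 2-pore-domain and potassium accessory classes lie on the lower side, and Kcnk16, with a listed 0 under the label Aire-KO, is placed by the added 0.1.

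The KCNE subunits, small single-pass membrane proteins that assemble with voltage-gated potassium pores, had 3 of 3 measured genes lower. Kcne1l (chrX:142304753-142306198), the gene also called Kcne5, was at 9.52 and 0.0867 FPKM, a 110-fold lower value on about 602 and 6 fragments. Its log2 ratio was -5.69, and the counting interval without the added 0.1 ran from -8.31 to -5.73. Kcne2 (chr16:92292389-92298133), which makes Kcnq1 a constitutively open channel in the acid-secreting cells of the stomach, was at 3.08 and 0.0121 FPKM. The second value rests on about 1 fragment, and the counting interval of its log2 ratio was -13.28 to -5.47. Kcne3, the Kcnq1 partner of intestinal and airway epithelium, was at 2.74 and 0.238 FPKM (log2 ratio -3.07). Kcne1 and Kcne4 had means below 0.5 FPKM, and both also had the larger value in the library labelled WT (0.654 and 0.0309 FPKM, and 0.417 and 0.0402 FPKM). All 5 KCNE genes thus had the larger value in the library labelled WT.

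The pore that KCNE subunits join differed less. Kcnq1 (chr7:143106877-143427050) was at 19.0 and 8.57 FPKM, with a log2 ratio of -1.14 (-1.25 to -1.05 by counting). The antisense transcript Kcnq1ot1 lies within the same locus, at 0.125 and 0.526 FPKM, and whether the authors counted by strand is not stated, so reads of the pair cannot be told apart with certainty. Kcnq3, a pore of the neuronal M-current, was at 3.79 and 5.79 FPKM and neither lower nor higher.

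Other accessory proteins of potassium channels split. Kcnmb3, a beta subunit of the large-conductance calcium-activated channel, was at 1.95 and 0.0671 FPKM (log2 ratio -3.61, counting interval -6.22 to -3.59). Kcnmb2 was at 1.41 and 0.711 FPKM, and Kcnmb4, the beta subunit best known from brain, at 9.69 and 15.9 FPKM. The pore these subunits join, Kcnma1, was at 7.97 and 10.4 FPKM. Thus of this channel only Kcnmb3 met the 2-fold rule among the 4 measured genes. Kcnab2, a cytoplasmic subunit of Kcna channels, was lower (1.97 and 0.421 FPKM, -1.99), and Kcnab1 was not (0.688 and 0.647 FPKM). The most abundant accessory gene was Kcnip3, a calcium-binding partner of Kcnd channels, at 38.7 and 27.9 FPKM, while no Kcnd gene reached the minimum.

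Among the 2-pore-domain channels, Kcnk16 (chr14:20261375-20269269), a channel of pancreatic islet cells whose CG-free upstream stretch is printed above, reached 4.28 FPKM under the label WT, on about 142 fragments, and was at a listed 0 under the label Aire-KO. A count of 0 fragments allows up to 0.0773 FPKM there (3 counts). Kcnk5 (chr14:20140057-20181782), an alkaline-activated channel of kidney and other epithelia, was at 4.11 and 0.260 FPKM, a 15.8-fold lower value (log2 ratio -3.55). Its 2 values rest on about 623 and 45 fragments. Kcnk1 was at 2.61 and 0.311 FPKM (-2.72) and Kcnk7, which carries no known current of its own, at 1.14 and 0.136 FPKM (-2.39). Kcnk3, an acid-sensitive channel, was close to the threshold, as given above. The most abundant gene of the class went the other way without passing the rule: Kcnk6 was at 22.8 and 37.3 FPKM, with a counting interval of 0.66 to 0.77. Kcnk10 (1.01 and 0.617 FPKM) and Kcnk2 (0.545 and 0.559 FPKM) were also neither lower nor higher.

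The inward rectifiers, which pass potassium more easily into the cell than out of it, ranged from one of the lowest ratios to 2 of the higher genes. Kcnj16 (chr11:110968033-111027968), which forms mixed channels with Kcnj10 in kidney tubules, was at 6.40 and 0.118 FPKM, a 54.4-fold lower value (log2 ratio -4.90, counting interval -6.45 to -5.16). Kcnj10 was below the minimum at 0.380 and 0.0916 FPKM. Kcnj12 of the heart and skeletal muscle was at 2.20 and 0.516 FPKM (-1.90). Kcnj13, a channel of retinal pigment epithelium and choroid plexus, was at 2.62 and 0.688 FPKM (-1.78), and its printed upstream stretch is the one with TATAAA. It shares a locus with Gigyf2 in the authors' table. Kcnj3 and Kcnj5, which together form the G-protein-gated channel through which acetylcholine slows the heart, were both higher. Kcnj3 was at 5.52 and 15.5 FPKM (1.47, counting interval 1.40 to 1.58) and Kcnj5 at 3.82 and 8.49 FPKM (1.13, counting interval 1.03 to 1.27). Their relatives Kcnj6 (1.09 and 0.596 FPKM) and Kcnj9 (0.417 and 0.0298 FPKM, below the minimum) had the larger value in the library labelled WT. The most abundant channel transcript of all, Kcnj15 (chr16:95257558-95300260), was at 62.7 and 55.6 FPKM, and Kcnj11, the pore of the insulin-releasing potassium channel of beta cells, at 4.33 and 3.71 FPKM. The values of Kcnj15 were 1.13-fold apart and those of Kcnj11 were 1.17-fold apart.

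Among voltage-gated potassium pores, the lower genes included Kcnc4 and 3 members of the EAG family besides Kcnq1. Kcnc4, a fast-inactivating pore, was at 1.26 and 0.110 FPKM (log2 ratio -2.69). Kcnh1 was at 1.52 and 0.471 FPKM (-1.51), Kcnh2, the pore of the rapid repolarising current of the heart, at 1.74 and 0.556 FPKM (-1.49), and Kcnh8 at 1.36 and 0.453 FPKM (-1.40). The same family held Kcnh4 on the higher side (1.03 and 2.90 FPKM, 1.41) and the 2 most abundant members, Kcnh6 (16.4 and 22.5 FPKM) and Kcnh3 (8.75 and 7.70 FPKM), in neither group. The other higher pores were shaker-type. Kcna2, a channel of myelinated axons, was at 1.05 and 3.80 FPKM (1.76, counting interval 1.72 to 1.98). Kcna3, the main voltage-gated potassium channel of T lymphocytes, was at 0.201 and 0.975 FPKM (1.83) on about 16 and 91 fragments, with a counting interval of 1.52 to 3.16. Beside that value, the summed level of the thymocyte markers was 57.1 and 73.1 FPKM, of which Tcf7 alone gave 21.6 and 51.6 FPKM. Of the 12 thymocyte markers, 8 had the larger value in the library labelled WT, among them Cd3d (3.62 and 3.10 FPKM). The other 4, among them Tcf7, had the larger value in the library labelled Aire-KO. The part of T cells in the Kcna3 value was not tested. The silent subunit Kcng3 was at 0.532 and 2.04 FPKM (1.76, counting interval 1.58 to 2.31).

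Among the calcium- and sodium-activated potassium channels, Kcnn1 and Kcnt1 were lower and Kcnn3 was higher. Kcnn1 and Kcnn3 encode small-conductance calcium-activated channels. Kcnn1 was at 3.96 and 1.13 FPKM (log2 ratio -1.72, counting interval -2.02 to -1.59) and Kcnn3 at 1.36 and 4.57 FPKM (1.68, counting interval 1.51 to 2.00). Their values thus moved in opposite directions, and the third paralog measured, Kcnn4 of lymphocytes, red cells and secretory epithelium, was at 4.21 and 4.37 FPKM. The sodium-activated channel gene Kcnt1 was at 0.965 and 0.0709 FPKM (-2.64), and its paralog Kcnt2, below the minimum, was at 0.447 FPKM and listed at 0.

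The measured calcium channel pores were mostly level or higher. Cacna1s (chr1:136052806-136119822), the voltage sensor of skeletal muscle contraction, was at 5.24 and 14.6 FPKM, a 2.79-fold higher value (log2 ratio 1.46, counting interval 1.40 to 1.57) on about 1453 and 4674 fragments. The presynaptic pore Cacna1b was at 8.60 and 15.3 FPKM (0.82), and the low-voltage-activated pore Cacna1h at 2.93 and 4.50 FPKM (0.60). Cacna1a, the presynaptic pore of many central synapses, leaned the other way at 2.15 and 1.16 FPKM (-0.84). None of these last 3 genes met the 2-fold rule. Below the minimum, Cacna1i (0.450 and 0.0153 FPKM) and Cacna1c (0.411 and 0.143 FPKM) had the larger value in the library labelled WT. Cacna1f, also below the minimum, was at 0.218 and 0.266 FPKM. Of the accessory subunits, the alpha-2-delta genes diverged: Cacna2d2 was at 4.50 and 0.784 FPKM (-2.38) and Cacna2d1, the subunit bound by gabapentin, at 2.25 and 4.75 FPKM (1.05). The beta subunits, which bring pores to the membrane, did not meet the rule, with Cacnb3 at 50.4 and 41.0 FPKM and Cacnb1, the form of skeletal muscle, at 7.01 and 4.95 FPKM.

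The gamma subunits include Cacng1 of skeletal muscle and a set of relatives that escort AMPA-type glutamate receptors. Cacng8 (chr7:3394042-3416266) was at 4.83 and 18.1 FPKM, a 3.74-fold higher value (log2 ratio 1.88, counting interval 1.71 to 2.10), and Cacng7 at 2.28 and 5.72 FPKM (1.29). Cacng5 was lower at 1.18 and 0.394 FPKM (-1.37). Cacng1 (3.60 and 1.96 FPKM) and Cacng4 (1.70 and 2.36 FPKM) were neither. Cacng3, below the minimum, was at 0.504 FPKM on about 62 fragments and was at a listed 0 under the label Aire-KO, where a count of 0 allows up to 0.0212 FPKM.

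Of the sodium channels, Scn9a (chr2:66480080-66635114), the pore that amplifies weak depolarisations in pain-sensing neurons, had the largest log2 ratio among the 77 measured channel genes. It stood at 0.816 and 4.03 FPKM, a 4.94-fold higher value (log2 ratio 2.17, counting interval 2.14 to 2.47) on about 363 and 2136 fragments. The antisense row Gm13629 of the same locus was listed at 0 in both libraries. The other pain-related pores were below the minimum and pointed both ways: Scn10a was at 0.498 FPKM and listed at 0, and Scn11a at 0.138 and 0.254 FPKM. Scn3a was at 1.18 and 1.86 FPKM, the skeletal muscle pore Scn4a at 1.18 and 1.02 FPKM and Scn8a at 0.637 and 0.672 FPKM, and all were neither lower nor higher. Among the beta subunits, Scn4b had the same value, 9.32 FPKM, in both libraries.

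The 60 members below the minimum were counted but not called. Of these, 50 had the larger value in the library labelled WT (83.3%), and among all genes below the minimum with a value in either library the share was 77.4%. Of all 137 rows, 94 had the larger value in the library labelled WT (68.6%), against 53.5% of all genes with a value. None of the 137 was listed at 0 in both libraries. Kcnmb4os1 alone had a listed 0 under the label WT, with 0.283 FPKM in the other library, and 13 rows had a listed 0 under the label Aire-KO. Of all 23992 genes, 3892 had a listed 0 under the label WT and 5278 under the label Aire-KO, and 3514 had it in both. A listed 0 in 1 library only was thus more common under the label Aire-KO among all genes too. Of the 13 channel rows, Kcnk16, Cacng3, Scn10a and Kcnt2 had the most fragments in the library labelled WT, about 142, 62, 154 and 71. The largest values below the minimum were of Kcnip1 (0.947 and 0.0302 FPKM), Kcnab3 (0.808 and 0.132 FPKM) and Kcna5, a pore of the atrium (0.778 and 0.0390 FPKM), each larger in the library labelled WT.

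Grouped by the tissue in which the channels are best known, the secretory epithelium list held the most lower genes of the 10 lists. Over all genes at the minimum, 20.5% were lower and 7.09% higher. Of the 8 secretory epithelium genes, Kcnj16, Kcne2, Kcnk5, Kcne3 and Kcnq1 were lower and Kcnj15, Kcnn4 and Kcnma1 were neither. Their median was -2.10, with sums of 110.2 and 79.5 FPKM. Beside these values, the ionocyte-like markers had 5 of 6 lower and 1 higher. The lower ones included the proton pump gene Atp6v1b1 (3.87 and 0.147 FPKM) and the chloride channel gene Cftr (7.33 and 3.08 FPKM). The higher one was Stap1 (3.03 and 12.5 FPKM), and the tuft-like markers were lower as given above. Their part in the result was not tested. The cardiac list had 3 of 11 measured genes lower (Kcnj12, Kcnh2 and Kcnq1) and 3 higher (Cacna2d1, Kcnj5 and Kcnj3). The skeletal muscle list had 0 of 6 lower and 2 higher (Cacna1s and Cacna2d1), while of the muscle-like markers Myh3 was at 3.96 and 0.0190 FPKM, Ckm at 10.4 and 4.94 FPKM, Myog at 14.4 and 19.8 FPKM and Ttn at 0.819 and 2.66 FPKM, so that these markers did not share 1 direction.

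Of the 11 measured genes on the neuronal list, 1 was lower, 1 was higher (Kcna2) and 9 were neither, with a median of 0.07. The beta cell list had 1 of 4 lower (Kcnk16). The photoreceptor and hair cell list had 1 of 3 lower and the renal tubule list 1 of 2 (Kcnj16). Of the lymphocyte pair, Kcna3 was higher and Kcnn4 was not, and Scn9a was the 1 measured gene of the nociceptor list. Among 5 genes whose products are known autoantibody targets in people, 3 were measured and 1 of them was higher (Kcna2). Kcnrg, a cytoplasmic regulator of potassium channels and a lung autoantigen in the human disease caused by AIRE mutations, was at 2.29 and 2.32 FPKM, a log2 ratio of 0.02 with a counting interval of -0.28 to 0.32. Its locus in the authors' table also holds Dleu2 and Trim13.

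Members that lie side by side in the genome did not always share a direction. Within 500 kb of each other stood 59 of the 137 genes, in 25 clusters, and 11 clusters had at least 2 measured genes. On chromosome 3, Kcna3 and Kcna2 were higher, Kcna10 beside them was below the minimum (0.129 FPKM and listed at 0), and Kcnc4 (chr3:107438298-107460287) was lower. This was the only cluster with both a lower and a higher gene. Kcnk5 and Kcnk16, neighbours on chromosome 14, were both lower, and Cacng7 and Cacng8 on chromosome 7 were both higher, while Cacng6 beside them was at 0.177 and 0.150 FPKM. Next to Kcnj16 on chromosome 11, Kcnj2 was at 4.42 and 3.57 FPKM and did not meet the rule. On chromosome 2, Scn9a was higher between Scn1a (0.0729 and 0.0318 FPKM, below the minimum) and Scn7a (1.07 and 0.845 FPKM, neither). Beside the higher gene Kcnj5 on chromosome 9, Kcnj1, the potassium secretion channel of the kidney, was at 0.439 and 0.0509 FPKM.

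**Figure D5:**
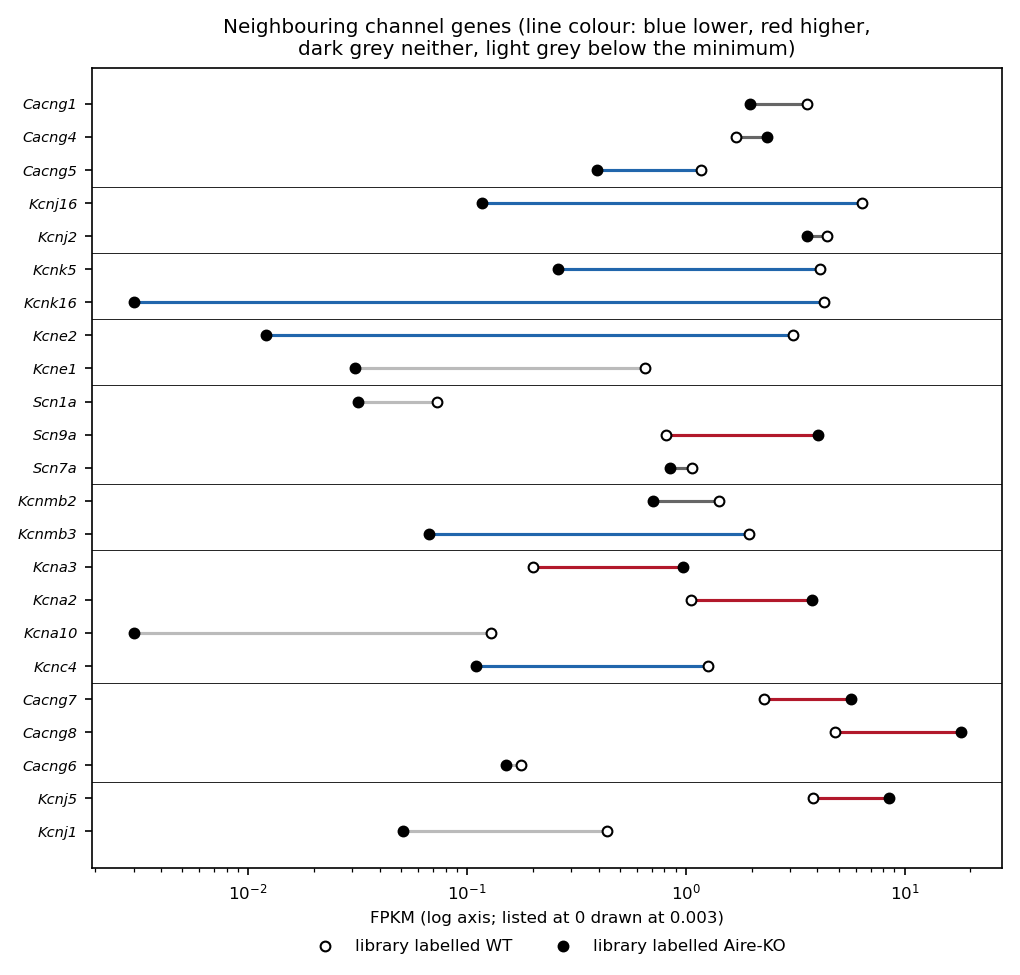
Each row is 1 channel gene and each block 1 set of genes within 500 kb of a neighbour, with FPKM in the library labelled WT (open circle) and in the library labelled Aire-KO (filled circle) on a log axis; values listed at 0 are drawn at 0.003. Blue lines are lower, red higher, dark grey neither and light grey below the minimum; the block of Kcna3, Kcna2, Kcna10 and Kcnc4 holds both red and blue, and Kcnj16 spans a wide range beside a nearly level Kcnj2.

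Isoform shares were compared where the depth allowed. The 137 genes had 275 isoforms in the deposited isoform table, 46 genes had 2 or more, and 18 of those had at least 1 FPKM in both libraries. An isoform's share shifted by 25 percentage points or more in 3 of the 18, against 11.7% of all 3561 genes measured the same way. In Cacnb1, isoform NM_001282977 went from 37.8% to a listed 0 and NM_145121 from 62.2% to 88.6%. In Kcnip2, a partner of Kcnd pores in the heart, NM_030716 went from 21.8% to 58.5% and NM_145704 from 44.1% to 15.03%. In Kcnrg, NM_001039105 went from 70.3% to 95.4%. All 3 genes were neither lower nor higher in total, and splitting fragments between overlapping isoforms adds error that was not measured here.

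Channel families outside the symbol rule were read from lists of their own. Over all genes at the minimum, 20.5% were lower and 7.09% higher. Of 52 measured genes of other cation channels, 14 were lower (26.9%) and 3 higher (5.77%). The lower ones included Trpm5, the taste-type channel that is also a tuft-like marker (57.1 and 10.8 FPKM), and Scnn1a, a subunit of the epithelial sodium channel (48.7 and 10.8 FPKM). Chloride channels had 8 of 17 lower (47.1%) and 0 higher, with Cftr and Ano9 (13.9 and 3.69 FPKM) among the lower ones. Channel partners had 3 of 19 lower (15.8%) and 4 higher (21.1%). The higher partners were Dpp10, which assembles with Kcnd pores (19.3 and 76.3 FPKM), Stac, which binds L-type calcium channels (9.17 and 29.8 FPKM), Fgf13, which binds sodium channels (8.02 and 24.4 FPKM), and Rem1, an inhibitor of calcium channels (2.46 and 5.20 FPKM). Stac3, which is needed for Cacna1s to work in skeletal muscle, was lower at 1.29 and 0.342 FPKM, opposite to Cacna1s. Abcc8, the sulfonylurea receptor that joins Kcnj11, was at 10.4 and 14.6 FPKM. Genes of neurotransmitter receptors, taken by symbol and not all of them channels, had 13 of 43 measured genes lower (30.2%) and 4 higher (9.30%). Their median was -0.17. Among the channel genes the shares were 31.2% and 15.6%, and this difference was not tested.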

How the data were processed

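Polyadenylated RNA was sequenced in 2 libraries, 1 per genotype. The authors deposited gene and isoform tables in FPKM, with their own p-value and q-value for each gene. The mm10 build, TopHat2 and Cuffdiff are named in the submitters' processing notes. Versions, annotation, strand setting and scaling: not given in the sources used here. The 5 gene rows whose estimate failed for high coverage were treated as missing. Python 3.11.15 with pandas 2.3.3, numpy 2.4.6 and scipy 1.17.1 computed the ratios, tested on simulated data.

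Depth was estimated from steps in low FPKM values: about 47800000 and 55000000 fragments, with 77.8% of 189 and 78.5% of 460 low values within 0.1 of a whole number. The step was fitted to these values, which leaves the totals approximate. About 42.5 and 49.2 fragments correspond to 0.5 FPKM at 2000 bp. Counting intervals are exact conditional binomial (Clopper-Pearson) at 95%, from GENCODE transcript lengths, and leave out all error but counting. Reads carried no molecular identifiers, so fragments need not be separate molecules. The FPKM sums were 523609 and 551619.

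The channel genes, lists and rules were chosen with earlier results of these data known. The naming rule takes Aire, the 15 members with the lowest and the 10 with the highest ratio of those averaging at least 1 FPKM, the 8 most abundant members in each library, members at 1 FPKM or more in 1 library and listed at 0 in the other, the most abundant of each class, list members and their neighbours. Other members were named after their values were seen. The alternatives tried were the added FPKM, scaling, minimum, fold and isoform settings. Some members are counted but not reported by name here.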

Additional observations from a re-analysis of the deposited data

How the results depend on the processing

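The direction of the larger share of lower than higher channel genes depended on the minimum. Lower genes numbered 24 (31.2%, against 20.5% of all genes). They numbered 54 with no minimum (39.4%, against 21.6%), 8 with a mean of 2 FPKM or more (20%, against 14.3%) and 12 at a 4-fold rule (15.6%, against 11.9%). Higher genes numbered 12, and 7 with 1 FPKM added (9.09%, against 4.41% of all genes) and 1 at a 4-fold rule (1.30%, against 0.629%). The median log2 ratio of -0.19 was -0.55 with no minimum and turned to 0.21 with a mean of 2 FPKM or more, where fewer genes were counted. For the lists of other channels and partners, 25 genes were lower in all. The number was 13 with 1 FPKM added, 42 with no minimum, 9 with a mean of 2 FPKM or more and 12 at a 4-fold rule. Higher genes of these lists numbered 7, and 4 with 0.5 or 1 FPKM added and 0 at a 4-fold rule. Shares of these lists under each setting were not computed. Isoform shifts were found in 3 of 18 genes, in 5 at 15 percentage points and in 0 at 40 points. Among all 3561 genes measured the same way, 876 shifted at 15 points and 155 at 40 points. Setting the median ratio of all genes to 0, a shift of 0.05, left 24 lower and 11 higher, and equal upper quartiles, sums of isoforms or leaving out noncoding rows left 24 and 12. Named genes were recomputed under the changes of added FPKM, scaling and isoform sums, and not at another minimum or fold. Of these values, 212 of 216 kept their call. With 1 FPKM added Kcng3 (0.99), Kcnh2 (-0.82), Kcnh4 (0.94) and Kcnj5 (0.98) did not. Kcnq1ot1, below the minimum and so without a call, went from a ratio of 1.48 to 0.72 with 0.5 FPKM added and 0.44 with 1 FPKM added. The causes of these changes were not tested. No paired analysis was possible because each genotype has 1 library, and no library could be left out. Low values limit the comparison: 60 of 137 channel genes were below the minimum.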
